A study of Homo sapiens with 21 samples.

Results

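The 8 genes described here are 5 human metallothionein genes, MT2A, MT1E, MT1X, MT1F and MT1G, and 3 genes of the zinc response, the transcription factor MTF1, the zinc exporter SLC30A1 and the zinc importer SLC39A10. They were chosen by name out of 65065 genes in the count table, and 7 of the 8 had enough counts to be tested. HCT-116 is an established human colorectal carcinoma cell line, described as epithelial-like in the labels. It was exposed to extracellular vesicles (EVs), membrane-bound particles released by cells, isolated from the serum of HCC patients (HCC+) or of healthy people (HCC-). The groups were HCC+ EVs at 0.048, 0.24 and 1.2 mg/mL, HCC- EVs at 0.048, 0.24 and 1.2 mg/mL, and a blank at 0 mg/mL, with 3 polyA RNA libraries in each of the 7 groups. All groups shared DMEM with exosome-depleted serum. The labels give neither the exposure time nor the number of serum donors, and nothing in them says that replicate libraries are separate cultures. The p-values therefore measure the spread between libraries, which may be technical.

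Metallothioneins are small proteins whose many cysteines bind zinc, copper and cadmium, and they buffer free zinc in the cytosol. When free zinc rises, MTF1 binds metal response elements in promoters and raises transcription of metallothionein genes and of SLC30A1, which carries zinc out of the cell. SLC39A10 carries zinc into the cytosol, and metallothionein genes also respond to glucocorticoids and to oxidants.

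The 21 libraries held 31.22 to 64.01 M counts (M, mega), and 19556 genes were tested. Levels are given in CPM, counts per mega of counts scaled with TMM factors, or in CPM per kb of exon where genes are compared. Fold changes are log2 values ± SE from edgeR's quasi-likelihood test, and a gene is said to rise or fall where its Benjamini-Hochberg adjusted p over all tested genes was under 0.05. Where libraries are said not to overlap, that describes the named gene only. The share of all tested genes without overlap is not given here. Of 8 epithelial markers, 7 were well expressed, with a summed level of 3560 to 5080 CPM over all libraries, while VIL1, a marker of intestinal epithelium, reached 0.343 CPM at most. Scaling by total count alone moved the median log2 fold change of all genes by 0.12 for HCC+ and 0.28 for HCC- at 1.2 mg/mL against the blank, and by -0.16 for HCC+ against HCC- at that dose. In a bulk library, fewer cells of a type and less RNA per cell cannot be told apart.

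The metallothionein genes lie side by side on chromosome 16 (GRCh38): MT2A (ENSG00000125148) at chr16:56608584-56609497, MT1E (ENSG00000169715) at chr16:56625475-56627112, MT1F (ENSG00000198417) at chr16:56657731-56660698 and MT1X (ENSG00000187193) at chr16:56682470-56684196, all on the plus strand, with MT1G (ENSG00000125144) at chr16:56666731-56668065 on the minus strand. Their coding sequences show how alike the copies are, and reads from such copies may be shared. The sequences below are from GENCODE v29, with the 20 cysteine codons of each in capitals.
MT2A: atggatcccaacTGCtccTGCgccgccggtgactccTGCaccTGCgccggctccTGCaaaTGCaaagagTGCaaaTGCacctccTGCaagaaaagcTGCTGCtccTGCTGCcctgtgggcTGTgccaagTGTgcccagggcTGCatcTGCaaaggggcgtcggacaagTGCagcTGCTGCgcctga
MT1E: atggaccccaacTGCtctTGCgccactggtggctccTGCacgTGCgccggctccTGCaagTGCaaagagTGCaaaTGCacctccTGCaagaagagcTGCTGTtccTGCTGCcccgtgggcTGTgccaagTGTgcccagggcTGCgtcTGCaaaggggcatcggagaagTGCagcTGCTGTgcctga
MT1X: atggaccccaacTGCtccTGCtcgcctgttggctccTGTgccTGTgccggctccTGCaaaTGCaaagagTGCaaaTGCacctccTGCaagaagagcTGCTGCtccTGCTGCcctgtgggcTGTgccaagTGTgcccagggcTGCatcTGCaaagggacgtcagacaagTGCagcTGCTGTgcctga
MT1F: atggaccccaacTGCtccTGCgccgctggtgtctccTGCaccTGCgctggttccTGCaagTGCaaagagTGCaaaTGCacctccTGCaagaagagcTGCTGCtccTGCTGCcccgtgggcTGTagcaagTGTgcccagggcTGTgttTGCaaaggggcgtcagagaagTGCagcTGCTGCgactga
Each of these 4 sequences has 186 bases, and pairs of them were 88.7% to 92.5% identical. Of all stretches of 50 bases in its transcripts, MT2A shared 1.58% with another of the 14 metallothionein genes of the cluster, MT1E 7.1%, MT1X 3.37%, MT1F 1.22% and MT1G 16.35%. At 75 bases the shares were 0% for MT2A and MT1F, 1.42% for MT1E, 1.15% for MT1X and 5.73% for MT1G, and at 100 bases they were 0% for all 5 genes. The sources used here give neither the read length nor how reads with several matches were counted. Of the 1727 exon bases of MT1X, 321 (18.6%) are also annotated to ENSG00000259827 on the same strand, which had 0 counts in every library. Whether reads in that stretch were left uncounted for MT1X cannot be told from these counts.

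Promoters were examined because MTF1 acts through short metal response elements. The 250 bases before the start of transcription were taken from RefSeq (GRCh38.p14), which had entries for 5 of the 8 genes: MT2A, MT1X, SLC30A1, MTF1 and SLC39A10. The core was searched as TGCACNC or TGCGCNC on both strands, and matches are in capitals, written as the complementary letters where they lie on the other strand.
MT2A promoter, chr16:56608334-56608583, plus strand: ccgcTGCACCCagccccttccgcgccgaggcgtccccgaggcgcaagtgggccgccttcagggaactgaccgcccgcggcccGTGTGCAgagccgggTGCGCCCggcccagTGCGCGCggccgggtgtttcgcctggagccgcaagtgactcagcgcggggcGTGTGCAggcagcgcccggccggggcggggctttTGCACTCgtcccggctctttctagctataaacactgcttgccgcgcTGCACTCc
MT1X promoter, chr16:56682220-56682469, plus strand: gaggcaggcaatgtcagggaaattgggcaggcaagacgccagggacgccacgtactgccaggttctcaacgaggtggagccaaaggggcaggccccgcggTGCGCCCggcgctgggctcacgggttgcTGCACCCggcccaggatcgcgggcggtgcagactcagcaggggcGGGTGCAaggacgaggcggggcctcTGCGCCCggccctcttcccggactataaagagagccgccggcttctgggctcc
SLC30A1 promoter, chr1:211579162-211579411, minus strand: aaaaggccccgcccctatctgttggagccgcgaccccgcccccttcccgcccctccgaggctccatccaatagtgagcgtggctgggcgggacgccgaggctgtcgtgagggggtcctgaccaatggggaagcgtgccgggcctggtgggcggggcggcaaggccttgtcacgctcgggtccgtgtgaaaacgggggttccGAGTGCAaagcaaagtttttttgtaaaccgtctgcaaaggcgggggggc
The MT2A window held 7 cores, 5 on the gene's strand and 2 on the other, the nearest 8 bases before the start. The MT1X window held 4 cores, 3 and 1, and the SLC30A1 window held 1, on the other strand. No core was found in the windows of MTF1 and SLC39A10. The SLC39A10 windows, chr2:195656708-195656957 and chr2:195656976-195657225, lie inside the span of the gene in the count table, chr2:195575977-195737702. The bases before that span were not searched. Of 35093 promoter windows, 24.8% held at least 1 core and 0.368% (129 windows) held at least 4, with 12 as the highest number.

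MT2A and MT1E carried nearly all of the metallothionein RNA, and both fell at the highest dose of either EV source. In the blank, MT2A stood at 339.9 ± 69.6 CPM per kb and MT1E at 166 ± 23.5, whereas MT1X stood at 2.94 ± 0.26 and MT1F at 1.85 ± 0.25 (SD, n = 3). The 2 leading genes made up 95.8% to 98.5% of the summed counts of all 14 MT1 and MT2 genes of the cluster in each library. The summed level averaged 234 ± 16.5 CPM in HCC+ at 1.2 mg/mL and 169 ± 22.9 CPM in HCC- at 1.2 mg/mL, against 494 ± 89.1 CPM in the blank (SD, n = 3).

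MT2A, the most abundant metallothionein here, had 136, 154 and 150.0 CPM in HCC+ at 1.2 mg/mL and 98.8, 93.5 and 122 CPM in HCC- at 1.2 mg/mL, against 276, 384 and 272 CPM in the blank. Every library at 1.2 mg/mL was below every blank library. The fold change was -1.08 ± 0.18 for HCC+ (adjusted p = 0.000239) and -1.57 ± 0.18 for HCC- (adjusted p = 2.31e-06), both in edgeR. At 0.048 mg/mL MT2A had 225, 256 and 254 CPM in HCC+ and 464, 441 and 322 CPM in HCC-, and at 0.24 mg/mL it had 234, 314 and 315 CPM in HCC+ and 268, 271 and 194 CPM in HCC-. The 0.048 mg/mL libraries of HCC+ all lay below the blank, as did the 0.24 mg/mL libraries of HCC-, while HCC- at 0.048 mg/mL held the 2 highest values of the 21. None of these 4 groups passed the test against the blank. For HCC- at 0.048 mg/mL the fold change of 0.40 ± 0.18 had an adjusted p of 0.144, and without blank replicate 2 it was 0.58 with an adjusted p of 0.0331. In the other 12 of 13 alternatives it did not pass, with fold changes down to 0.23 and adjusted p up to 0.596. Leaving out blank replicate 2 gave 2925 higher and 2801 lower genes of all in this comparison, and leaving out blank replicate 1 gave 0 and 1.

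MT1E, the second metallothionein by level, was likewise lowest at 1.2 mg/mL and highest in HCC- at 0.048 mg/mL. It had 73.5, 85.2 and 80.2 CPM in HCC+ at 1.2 mg/mL and 54.6, 52.5 and 66.2 CPM in HCC- at 1.2 mg/mL, against 157, 203 and 164 CPM in the blank. The fold change was -1.13 ± 0.16 for HCC+ (adjusted p = 2.41e-05) and -1.60 ± 0.16 for HCC- (adjusted p = 1.38e-07), and no library overlapped the blank. At 0.048 mg/mL it had 133, 141 and 137 CPM in HCC+ and 240.0, 245 and 166 CPM in HCC-, and at 0.24 mg/mL it had 135, 164 and 179 CPM in HCC+ and 163, 156 and 117 CPM in HCC-. As for MT2A, the 3 lowest libraries of the 21 were those of HCC- at 1.2 mg/mL and the next 3 those of HCC+ at 1.2 mg/mL. The falls of MT2A and MT1E against the blank held in all 13 alternative settings for each source. Across those settings MT2A ranged over -1.17 to -0.90 for HCC+ and -1.69 to -1.28 for HCC-, and MT1E over -1.21 to -1.0 for HCC+ and -1.70 to -1.31 for HCC-.

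**Figure D1:**
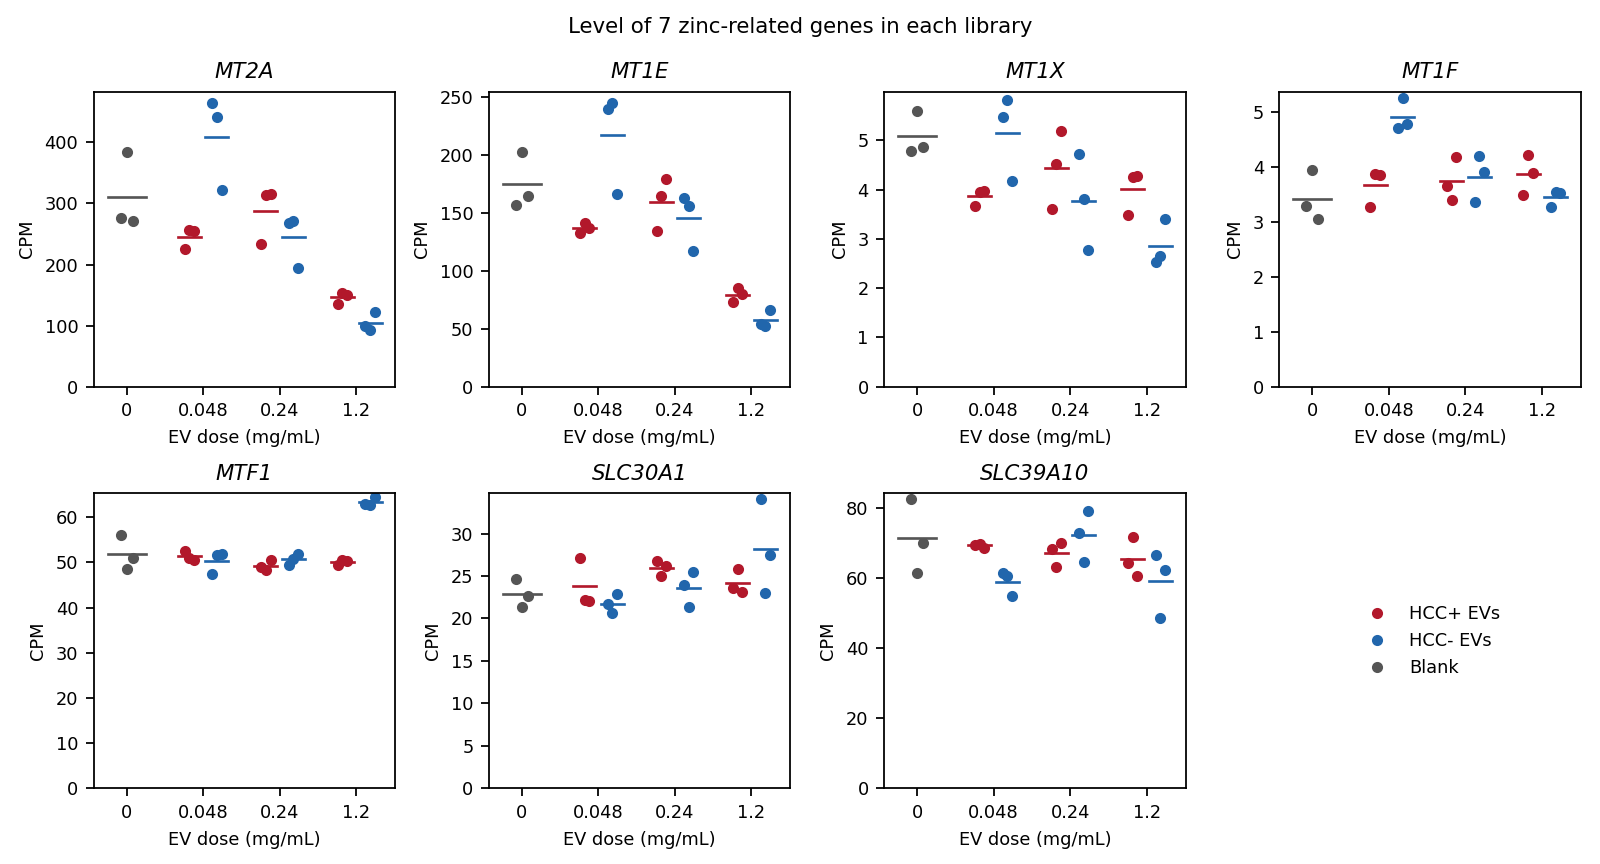
CPM of 7 genes in each library by EV dose (0 is the blank), with points for libraries and lines for group means (n = 3); y axes start at 0. MT2A and MT1E are lowest at 1.2 mg/mL, with group means of 146 and 79.6 CPM in HCC+ and 105 and 57.7 CPM in HCC-, against 311 and 175 CPM in the blank, and MTF1 stands out in HCC- at 1.2 mg/mL at 63.3 CPM, against 51.9 CPM in the blank.

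Ordered by group mean, MT2A was highest in HCC- at 0.048 mg/mL (409 ± 76.3 CPM), followed by the blank (311 ± 63.6), HCC+ at 0.24 mg/mL (288 ± 46.7), HCC+ at 0.048 mg/mL (245 ± 17.7), HCC- at 0.24 mg/mL (244 ± 43.5), HCC+ at 1.2 mg/mL (146 ± 9.76) and HCC- at 1.2 mg/mL (105 ± 15.1; SD, n = 3 each). Libraries of neighbouring groups overlapped down to HCC- at 0.24 mg/mL. The last 2 steps of the order, to HCC+ and then to HCC- at 1.2 mg/mL, were without overlap. The ratio of MT2A to MT1E counts stayed between 1.64 and 1.93 in all 21 libraries. Deviations of the 2 genes from their group means on the log2 scale had a Pearson r of 0.962 over the 21 libraries. Both genes were measured in the same libraries and groups, so this value describes the 21 libraries.

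**Figure D2:**
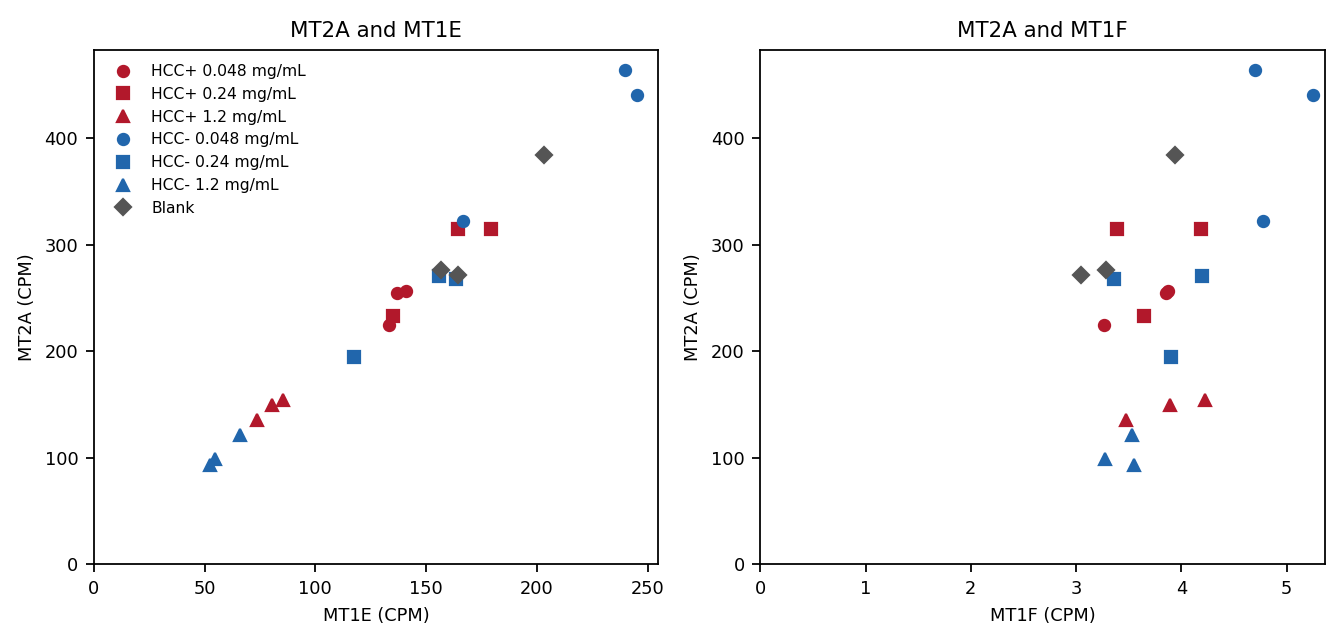
CPM of MT2A in each library against CPM of MT1E (left panel) and of MT1F (right panel), with colour for the EV source and marker shape for the dose. MT2A and MT1E lie near 1 line, with a count ratio of 1.64 to 1.93, whereas MT1F stays between 3.04 and 5.25 CPM while MT2A spans 93.5 to 464 CPM.

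The lower expressed copies moved less. MT1X had 3.48, 4.26 and 4.28 CPM in HCC+ at 1.2 mg/mL and 2.52, 2.65 and 3.4 CPM in HCC- at 1.2 mg/mL, against 4.77, 5.59 and 4.87 CPM in the blank, from 132 to 267 counts per library over all groups. It fell in HCC- at 1.2 mg/mL by 0.83 ± 0.18 on the log2 scale (adjusted p = 0.000252), also in all 13 alternatives, over a range of -0.97 to -0.55. For HCC+ at 1.2 mg/mL the fold change of -0.34 ± 0.18 did not pass (adjusted p = 0.147), although the libraries did not overlap. At 0.048 mg/mL MT1X had 3.67, 3.95 and 3.97 CPM in HCC+ and 5.47, 5.82 and 4.17 CPM in HCC-, and at 0.24 mg/mL 3.61, 4.52 and 5.19 CPM in HCC+ and 4.73, 3.80 and 2.77 CPM in HCC-, and none of these groups passed against the blank.

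MT1F had 3.48, 4.22 and 3.89 CPM in HCC+ at 1.2 mg/mL and 3.27, 3.55 and 3.53 CPM in HCC- at 1.2 mg/mL, against 3.28, 3.94 and 3.04 CPM in the blank, from 97 to 241 counts per library over all groups. These groups overlapped, and the fold changes were 0.17 ± 0.15 and 0.01 ± 0.15 (adjusted p = 0.418 and 0.966). In HCC- at 0.048 mg/mL it had 4.70, 5.25 and 4.78 CPM, above every blank library, and rose by 0.52 ± 0.15 (adjusted p = 0.0223). That call was lost without HCC- 0.048 mg/mL replicate 2 (0.47, adjusted p = 0.0927), without blank replicate 1 (0.49, 0.132) or 3 (0.44, 0.127), in a fit of only the 2 groups (0.51, 0.0547), and with trends by GC content and length removed (0.37, 0.319). The level lay between 3.26 and 4.18 CPM in HCC+ at the 2 lower doses and between 3.36 and 4.20 CPM in HCC- at 0.24 mg/mL, overlapping the blank.

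MT1G had 2 counts in all, both in 1 library of HCC+ at 1.2 mg/mL, and was not tested. A count of 0 allows up to 3 counts in a library, so MT1G was not detectable at this depth in the other 20 libraries. Of the 13 other metallothionein genes, MT1A, MT1M, MT3, MT1JP and MT1IP had no count in any library, and 1, MT1DP, was tested. MT1DP, a pseudogene with 302 counts over the 21 libraries, did not pass in any comparison at 1.2 mg/mL.

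MTF1 (ENSG00000188786, chr1:37809574-37859592, minus strand) rose only in HCC- at 1.2 mg/mL among the 6 EV groups set against the blank. It had 62.9, 62.6 and 64.4 CPM there, against 56.2, 48.5 and 51.0 CPM in the blank, a fold change of 0.29 ± 0.06 (adjusted p = 0.000256) without overlap. In HCC+ at 1.2 mg/mL it had 49.5, 50.5 and 50.4 CPM, within the range of the blank (-0.05 ± 0.06, adjusted p = 0.612). The difference between the sources at 1.2 mg/mL was itself tested, and MTF1 was lower in HCC+ than in HCC- by -0.34 ± 0.06 (adjusted p = 7.87e-05). The rise held in all 13 alternatives, from 0.23 to 0.57, the last under scaling by total count. In the 4 groups at lower doses the level stayed between 47.4 and 52.5 CPM.

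SLC30A1 (ENSG00000170385, chr1:211571568-211579161, minus strand) had 23.6, 25.9 and 23.2 CPM in HCC+ at 1.2 mg/mL and 34.1, 23.0 and 27.4 CPM in HCC- at 1.2 mg/mL, against 24.7, 21.4 and 22.7 CPM in the blank. One HCC- library stood high and another lay within the blank. The exporter rose in HCC- by 0.30 ± 0.11 (adjusted p = 0.0182), a call that was lost without HCC- 1.2 mg/mL replicate 1 (0.15, adjusted p = 0.25) or without blank replicate 2 (0.25, 0.0787) or 3 (0.29, 0.0561), and the value was 0.58 under scaling by total count. In HCC+ the fold change was 0.08 ± 0.11 (adjusted p = 0.616), and 0.22 with an adjusted p of 0.0347 with GC and length trends removed. At the lower doses it ranged from 22.1 to 27.1 CPM in HCC+ and from 20.6 to 25.4 CPM in HCC-, and no group passed.

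SLC39A10 (ENSG00000196950, chr2:195575977-195737702, plus strand) had 64.5, 71.9 and 60.6 CPM in HCC+ at 1.2 mg/mL and 66.6, 48.6 and 62.3 CPM in HCC- at 1.2 mg/mL, against 82.6, 61.4 and 70.2 CPM in the blank, and all 3 groups overlapped. It fell in HCC- by 0.27 ± 0.10 on the log2 scale (adjusted p = 0.0211). The call was lost without HCC- 1.2 mg/mL replicate 2 (-0.13, adjusted p = 0.268) or blank replicate 1 (-0.16, 0.186), in a fit of only the 2 groups (-0.25, 0.0928) and with GC and length trends removed (-0.06, 0.435), and the sign turned to 0.02 under scaling by total count. In HCC+ at 1.2 mg/mL the fold change was -0.12 ± 0.10 (adjusted p = 0.379). In HCC- at 0.048 mg/mL SLC39A10 had 61.5, 60.6 and 55.0 CPM, with a fold change of -0.27 ± 0.10 (adjusted p = 0.0546), and the adjusted p was 0.0335 in DESeq2, 0.0451 under scaling by total count and 0.978 with the trends removed.

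Counted over the 7 tested genes, 2 fell and none rose in HCC+ at 1.2 mg/mL against the blank, where 33% of all tested genes were called, 17.4% as lower and 15.6% as higher. In HCC- at 1.2 mg/mL 4 fell and 2 rose, where 53.3% were called, 28.5% as lower and 24.8% as higher. The median log2 fold change of the 7 genes was -0.12 for HCC+ and -0.27 for HCC-, against 0.01 and 0.05 over all tested genes. Under scaling by total count the members' calls were 2 lower in HCC+ and 3 lower and 2 higher in HCC-. Over all genes that scaling gave 4657 higher and 2069 lower in HCC+, against 3046 and 3398 with TMM factors, and 8128 higher and 3097 lower in HCC-, against 4844 and 5574. In HCC- at 0.048 mg/mL 1 gene, MT1F, was called, where 16.4% of tested genes were called, 8.28% as higher and 8.16% as lower. With trends by GC content and length removed, the number of all genes called in that comparison was 41 higher and 48 lower, against 1620 and 1596 without the removal. No member was called in edgeR for HCC+ at 0.048 mg/mL (background 0%, 2 members with an unadjusted p under 0.05), HCC+ at 0.24 mg/mL (0.00511%, 0 members) or HCC- at 0.24 mg/mL (0%, 1 member), and DESeq2 also called 0 in each.

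**Figure D3:**
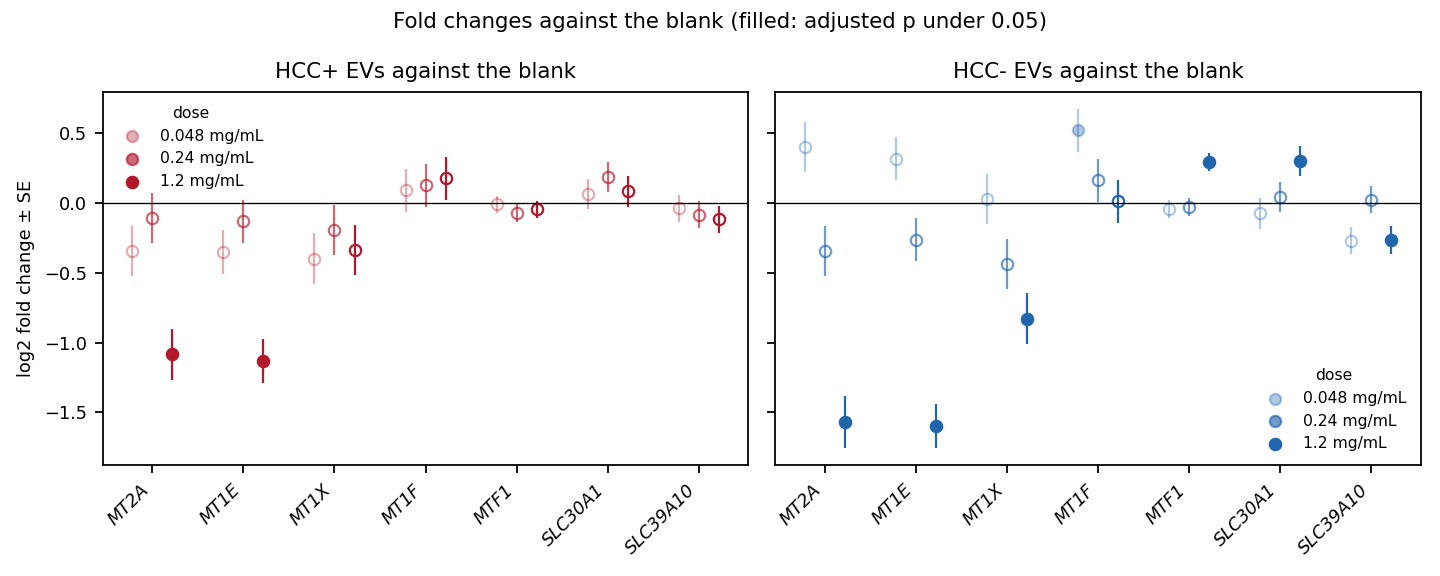
Log2 fold change against the blank ± SE from edgeR for 7 genes at each dose, for HCC+ EVs (left) and HCC- EVs (right); filled points had an adjusted p under 0.05. At 1.2 mg/mL MT2A and MT1E stand at -1.08 and -1.13 in HCC+ and at -1.57 and -1.60 in HCC-, and the points for MTF1, SLC30A1 and SLC39A10 lie between -0.27 and 0.30.

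The direct comparison of the EV sources sets the HCC+ and HCC- EVs used here against each other at the same dose. As the number of serum donors is not given, it does not extend to patients and healthy people in general. At 1.2 mg/mL MT2A, MT1E and MT1X were higher in HCC+ than in HCC-, by 0.48 ± 0.18 (adjusted p = 0.0484), 0.46 ± 0.16 (0.0286) and 0.49 ± 0.18 (0.0332), and MTF1 was lower, so 4 of 7 members passed where 35.3% of tested genes did, 22.6% as higher and 12.7% as lower. The libraries of the 2 sources did not overlap for these 4 genes, and the share of all tested genes without overlap is not given here. The 3 metallothionein calls lay near the threshold. With HCC+ replicate 2 or 3 or HCC- replicate 1 of this dose left out, MTF1 was the 1 member called, and without HCC- replicate 2 those called were MTF1 and SLC30A1. MT2A kept its call in 4 of 13 alternatives, and MT1E and MT1X theirs in 7 each. Under scaling by total count the 2 members called were MTF1 and SLC30A1, both lower in HCC+, and over all genes 2342 were higher and 4572 lower, against 4411 and 2490 with TMM factors.

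At 0.048 mg/mL the order of the sources was turned. MT2A averaged 245 ± 17.7 CPM in HCC+ and 409 ± 76.3 CPM in HCC-, and MT1E averaged 137 ± 3.95 CPM in HCC+ and 217 ± 44.0 CPM in HCC- (SD, n = 3 each), without overlap for either gene. How many of all tested genes were without overlap at this dose is likewise not given. The fold changes were -0.74 ± 0.18 (adjusted p = 0.0407) and -0.67 ± 0.15 (adjusted p = 0.0346), and these 2 members passed where 3.54% of tested genes did, 2.46% as lower and 1.08% as higher. Neither passed without any 1 of the 3 HCC+ libraries at this dose or without HCC- replicate 1 or 2, with adjusted p-values of 0.0715 to 0.162, nor with GC and length trends removed (0.145 and 0.147), a setting in which 9 genes of all were higher and 17 lower, in place of 212 and 481. MT1E also missed the threshold in a fit of only the 2 groups (0.059). The members' calls held under scaling by total count, where 396 of all genes were higher and 282 lower. At 0.24 mg/mL no member was called in edgeR or DESeq2 (background 0%), and 0 had an unadjusted p under 0.05.

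Set against the lowest dose of the same source, MT2A and MT1E fell at 1.2 mg/mL for both sources. For HCC+ the fold change was -0.74 ± 0.18 for MT2A (adjusted p = 0.00564) and -0.78 ± 0.16 for MT1E (0.00104), the 2 members called where 28.3% of tested genes were, 14.9% as lower and 13.4% as higher. For HCC- it was -1.97 ± 0.19 for MT2A (adjusted p = 1.87e-07) and -1.91 ± 0.16 for MT1E (1.36e-08), and 6 of 7 members were called where 52.8% of tested genes were, 28% as lower and 24.9% as higher. The other 4 were MT1X at -0.86 ± 0.18 (0.000159), MT1F at -0.51 ± 0.15 (0.00446), MTF1 at 0.33 ± 0.06 (4.26e-05) and SLC30A1 at 0.38 ± 0.11 (0.00355). The MT1F call was lost under scaling by total count (-0.22, adjusted p = 0.206) and with GC and length trends removed (-0.27, 0.114), and the SLC30A1 call without HCC- 1.2 mg/mL replicate 1 (0.23, 0.0776). MTF1 stood at 0.62 and SLC30A1 at 0.67 under scaling by total count, which over all genes gave 8382 higher and 2979 lower for HCC- and 3838 and 1805 for HCC+, against 4867 and 5467, and 2625 and 2919, with TMM factors.

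The change of the source difference between doses was tested directly as HCC+ minus HCC- at 1.2 mg/mL less the same at 0.048 mg/mL. It was 1.22 ± 0.25 for MT2A (adjusted p = 0.00225), 1.13 ± 0.22 for MT1E (0.00102) and 0.91 ± 0.25 for MT1X (0.00756). MTF1 had the opposite sign, -0.37 ± 0.09 (0.00245). With MT1F, 5 of 7 members passed where 24.3% of tested genes did, 16.7% with a positive and 7.63% with a negative difference. With total count scaling the split over all genes was 1631 positive and 3219 negative, against 3257 and 1493.

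The libraries of the highest dose also differed from the blank in markers of cell types, and for some lists so did groups at lower doses. The summed level of 3 endothelial markers, PECAM1, VWF and CDH5, was 2.58 to 3.28 CPM in HCC+ and 5.70 to 7.81 CPM in HCC- at 1.2 mg/mL, against 0.508 to 0.591 CPM in the blank. In HCC- at 0.24 mg/mL it was 0.912 to 1.11 CPM. Nearly all endothelial counts came from VWF (1135 over the 21 libraries) and PECAM1 (1017), whereas CDH5 had 22. The sum of 8 leukocyte markers was 2.97 to 4.19 CPM in HCC+ and 5.09 to 6.96 CPM in HCC- at 1.2 mg/mL, against 1.15 to 1.55 CPM in the blank, and S100A8 and S100A9 had no count. Most of the leukocyte counts came from HLA-DRA (1909 over the 21 libraries) and CD14 (530), whereas PTPRC had 25, CD3E 8 and MS4A1 5. Of 6 platelet markers, which summed to 20.4 to 22.1 CPM in HCC+ and 13.3 to 16.4 CPM in HCC- against 27.5 to 31.7 CPM in the blank, PPBP and PF4 had no count. NRGN held most of the platelet counts (19581 over the 21 libraries). The sum of 9 hepatocyte markers was 3.30 to 3.63 CPM in HCC+ and 2.68 to 3.61 CPM in HCC- at 1.2 mg/mL, against 2.2 to 2.6 CPM in the blank, with APOC3 at 0. In HCC- it was also above the blank at 0.048 mg/mL (2.75 to 3.27 CPM) and 0.24 mg/mL (2.67 to 3.97 CPM). In HCC+ it overlapped the blank at those doses. Of 3 tested hepatocyte markers, 1 rose in HCC+ and 0 in HCC- at 1.2 mg/mL, beside 15.6% and 24.8% of all tested genes. SERPINA1 held most of the hepatocyte counts (2447 over the 21 libraries), and ALB had 153. The 4 fibroblast markers, nearly all COL1A1, summed to 21.3 to 30.8 CPM in HCC+ and 28.6 to 34.6 CPM in HCC- at 1.2 mg/mL, against 14.2 to 17.7 CPM in the blank. The 5 erythroid markers summed to 0.389 to 0.936 CPM in HCC+ and 0.371 to 0.968 CPM in HCC- at 1.2 mg/mL, against 0.0677 to 0.2 CPM in the blank, without overlap. At 0.048 mg/mL they were also above the blank, at 0.23 to 0.444 CPM in HCC+ and 0.22 to 0.453 CPM in HCC-. Their counts over the 21 libraries were low, from 37 for HBB to 171 for SLC4A1. Of 2 tested erythroid markers, 0 rose in HCC+ and 1 in HCC- at 1.2 mg/mL, beside the same shares of all tested genes. The sum of the 8 epithelial markers was 4090 to 4410 CPM in HCC+ and 3560 to 3870 CPM in HCC- at 1.2 mg/mL, against 3770 to 4600 CPM in the blank. In HCC- at 0.048 mg/mL, where MT2A and MT1E were highest, it was 4610 to 5080 CPM, above every blank library. The part of these marker differences in the metallothionein results was not tested.

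Other zinc transporters did not follow a single direction. Of 8 tested zinc exporters besides SLC30A1, 1 rose and 1 fell in HCC+ at 1.2 mg/mL, and 0 rose and 4 fell in HCC- at 1.2 mg/mL. Over all tested genes 15.6% rose and 17.4% fell in HCC+, and 24.8% rose and 28.5% fell in HCC-, the shares against which the counts of this list and of the lists that follow stand. SLC30A9, a mitochondrial zinc transporter, fell in both, by 0.28 ± 0.07 in HCC+ (adjusted p = 0.00353) and 0.84 ± 0.08 in HCC- (5.15e-11) on the log2 scale, and SLC30A7, which loads zinc into the secretory pathway, fell by 0.47 ± 0.10 in HCC- (0.000283). Under scaling by total count, 1 rose and 0 fell in HCC+, and 1 rose and 1 fell in HCC-. There SLC30A9 was still called in HCC- but had an adjusted p of 0.0835 in HCC+, and SLC30A7 one of 0.125 in HCC-. In HCC- at 0.048 mg/mL 0 exporters rose and 3 fell, where 8.28% of all tested genes rose and 8.16% fell. The calls at that dose depended on the blank libraries. Over all genes 0 were higher and 1 lower without blank replicate 1, and 8 and 4 without blank replicate 3. With GC and length trends removed they were 41 and 48.

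Of 11 tested zinc importers besides SLC39A10, 2 rose and 3 fell in HCC+, and 3 rose and 7 fell in HCC- at 1.2 mg/mL, where 33% and 53.3% of all tested genes were called. The counts were 3 rising and 2 falling in HCC+, and 3 rising and 1 falling in HCC-, under scaling by total count. SLC39A13, an importer of the secretory pathway, rose by 0.44 ± 0.10 in HCC+ (adjusted p = 0.00104) and 0.65 ± 0.10 in HCC- (2.33e-06). SLC39A4, the importer of dietary zinc in the gut, fell by 0.51 ± 0.09 on the log2 scale in HCC- (2.65e-05) and had -0.16 ± 0.09 in HCC+ (0.201). SLC39A8 was higher in HCC+ than in HCC- at 1.2 mg/mL by 0.48 ± 0.08 (1.75e-05). These calls of the 3 genes held under every alternative run. In HCC- at 0.048 mg/mL 3 importers rose and 3 fell, beside 16.4% of all tested genes called, with the limits given for the exporters at that dose.

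Copper handling genes were split as well, with 4 rising and 4 falling of 12 tested in HCC+ and 4 rising and 6 falling in HCC- at 1.2 mg/mL, beside 33% of all tested genes called in HCC+ and 53.3% in HCC-. COX17, the copper chaperone of cytochrome oxidase, fell by 0.61 ± 0.11 in HCC+ (adjusted p = 3.45e-05) and 1.11 ± 0.11 in HCC- (2.83e-10) on the log2 scale. SOD1, the copper and zinc superoxide dismutase, fell by 0.72 ± 0.06 in HCC- (1.12e-11), and by 0.24 ± 0.06 in HCC+ (0.002), where the call was lost under scaling by total count (-0.12, 0.102) and with GC and length trends removed (-0.08, 0.184). ATP7B, a copper exporting pump, rose by 0.39 ± 0.10 in HCC+ (0.00257) and by 0.64 ± 0.10 in HCC- (1.55e-06). With scaling by total count 4 rose and 2 fell in HCC+, and 4 rose and 5 fell in HCC-.

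Metallothionein genes share inducers with the oxidant and cadmium response, and of its 10 listed genes 1 rose and 6 fell in each source at 1.2 mg/mL. The share of all tested genes that fell was 17.4% in HCC+ and 28.5% in HCC-, and the share that rose 15.6% and 24.8%. HMOX1, the heme oxygenase, was the 1 that rose, by 0.41 ± 0.09 in HCC+ (adjusted p = 0.000479) and 0.82 ± 0.09 in HCC- (2.61e-09). NQO1, a quinone reductase, fell by 0.49 ± 0.06 in HCC+ (6.45e-08) and 1.25 ± 0.06 in HCC- (1.55e-17), and SLC7A11, the cystine importer that feeds glutathione synthesis, fell by 1.57 ± 0.13 in HCC+ (3.18e-09) and 1.30 ± 0.13 in HCC- (7.27e-09). Under scaling by total count 1 rose and 3 fell in HCC+ and 2 rose and 4 fell in HCC-, with HMOX1, NQO1 and SLC7A11 still called.

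Of 8 genes of the glucocorticoid response, 3 rose and 1 fell in HCC+, and 4 rose and 2 fell in HCC- at 1.2 mg/mL, where 33% and 53.3% of all tested genes were called. SGK1, a kinase induced by glucocorticoids, rose by 1.19 ± 0.16 in HCC+ (adjusted p = 5.81e-07) and 1.81 ± 0.16 in HCC- (2.07e-11). TSC22D3, which encodes GILZ, rose by 1.35 ± 0.12 in HCC- (8.58e-11) and had -0.07 ± 0.13 in HCC+ (0.73), and the difference between the sources was -1.42 ± 0.12 (1.49e-10). FKBP5, another gene induced by glucocorticoids, fell by 0.49 ± 0.07 in HCC+ (7.46e-07) and 1.19 ± 0.07 in HCC- (1.21e-15). Scaled by total count, 3 rose and 1 fell in HCC+, and 5 rose and 1 fell in HCC-. The list medians in HCC+ and HCC- were -0.01 and -0.21 for exporters, -0.07 and -0.21 for importers, -0.03 and -0.25 for copper handling, -0.22 and -0.32 for the oxidant list and 0.01 and 0.37 for the glucocorticoid list, against 0.01 and 0.05 over all tested genes. The glucocorticoid genes moved in both directions in these libraries. The part of glucocorticoids in the metallothionein results was not tested.

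**Figure D4:**
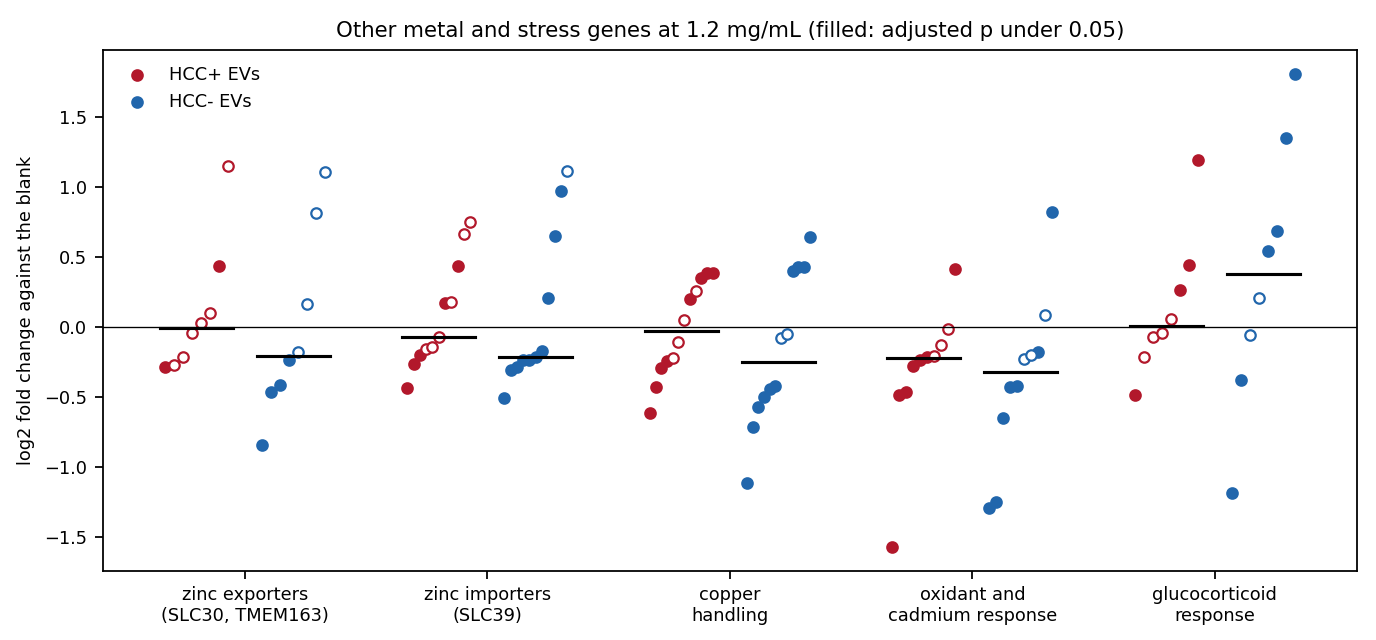
Log2 fold change against the blank at 1.2 mg/mL for the tested genes of 5 lists, HCC+ EVs left of HCC- EVs within each list; filled points had an adjusted p under 0.05 and black lines are list medians. Each list holds points above and below 0, from -1.57 for SLC7A11 in HCC+ to 1.81 for SGK1 in HCC-.

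The genes whose profile over the 21 libraries was most like the mean of MT2A, MT1E, MT1X and MT1F were taken by Pearson r of log2 CPM, among 12098 genes with a symbol and a mean of at least 1 log2 CPM. They were NTMT1 (r = 0.962), EMD (0.954), MYADM (0.954), ACTB (0.953) and CCDC124 (0.952), and the most opposite were MINAR1 (-0.94), CRYBG3 (-0.939) and ANKRD10 (-0.937). Of the 12098 genes, 193 (1.6%) had an r of at least 0.9 with this profile, and the median r was 0.21. The 5 most like genes had a GC content of 59.6% to 63.9%, and the 3 most opposite ones 40.6% to 48.2%. For SLC30A1 likeness was lower, with TOR1AIP1 (0.827), MTMR9 (0.819) and VCPIP1 (0.817) as the most like and EXT2 (-0.821), IFT140 (-0.815) and ADA (-0.811) as the most opposite. All genes were measured in the same libraries and groups, so these values describe the 21 libraries.

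Spread within groups differed between the members. The biological coefficient of variation was 0.151 for MT2A, 0.137 for MT1X, 0.131 for MT1E and 0.105 for MT1F, against 0.103 for the median tested gene. MTF1 had 0.0547, lower than that of all but 3.45% of tested genes.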

How the data were processed

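Counts of reads per gene were deposited by the authors for 65065 Ensembl genes in 21 libraries. Per the submitters' processing notes, reads were handled with cutadapt 3.4, HISAT2 2.2.1 and featureCounts 2.0.1 on GRCh38; which annotation release was used, and how strand and multimapping reads were treated, is not given in the sources used here. Symbols were matched for 41967 identifiers.

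All libraries were fitted with 7 group means in edgeR 4.0.16 (R 4.3.3) with TMM factors, filterByExpr, robust dispersions and the 2-sided quasi-likelihood F test with 14 residual degrees of freedom, and p-values were adjusted over 19556 genes in each of 12 comparisons. Each SE was taken as the fold change (log2) divided by the square root of F. The 8 genes and the lists were chosen with earlier results of these data known. All 8 genes are described. From each other list and each comparison at 1.2 mg/mL, up to 4 called genes with the smallest p could be named. Likeness used log2 CPM with a prior count of 2. The method was also run on simulated counts with known fold changes, for HCC+ at 1.2 mg/mL against the blank only. That run did not test the other comparisons or the choice of scaling.

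Alternatives were DESeq2 1.42.0, RLE size factors, total count scaling, keeping every gene with at least 1 count, a replicate block, fits of only the groups compared, trends of GC content and length removed as splines with 4 degrees of freedom set on 10001 genes (GC content from GENCODE v29, known for 99.7% of genes), and each library left out. Depth was 31.22 to 64.01 M counts per library, which limits MT1G, MT1F and MT1X most. A library with 0 counts allows up to 3, for counting error only. Figures were drawn with matplotlib 3.10.9.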

Additional observations from a re-analysis of the deposited data

Results flagged for a closer look

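For 5 members the difference between the EV sources was not the same at both ends of the dose range, by a direct test of HCC+ minus HCC- at 1.2 mg/mL less the same at 0.048 mg/mL in edgeR. MT2A had 1.22 (adjusted p = 0.00225): it averaged 146 CPM in HCC+ and 105 CPM in HCC- at 1.2 mg/mL, and 245 CPM in HCC+ and 409 CPM in HCC- at 0.048 mg/mL. MT1E had 1.13 (adjusted p = 0.00102), MT1X 0.91 (0.00756) and MTF1 -0.37 (0.00245), and these 4 calls held in all 19 alternatives. MT1F had 0.60 (adjusted p = 0.0374), a call held in 9 of the 19 alternatives. It was lost without HCC+ replicate 2 or 3 or any 1 of the HCC- libraries at 1.2 mg/mL, and without HCC+ replicate 1 or HCC- replicate 2 at 0.048 mg/mL. It was also lost under total count scaling, without the filter on low counts and with GC and length trends removed, with adjusted p-values up to 0.167.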

How the results depend on the processing

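The count of members called in HCC- at 0.048 mg/mL against the blank was 1, and it was 2 under total count scaling, without the filter, in DESeq2 and with the replicate block, and 0 with only the groups compared or with GC and length trends removed. Over all genes 1620 were called higher and 1596 lower in the main fit, and 2137 and 2115 in DESeq2. The numbers were 831 and 1145 with only the groups compared, and 41 and 48 with the trends removed. For HCC+ against HCC- at 1.2 mg/mL the count of members was 4, and 2 under total count scaling and without the filter, 3 with RLE size factors, the replicate block or only the groups compared, 4 in DESeq2, and 5 with the trends removed, where SLC30A1 was called as lower in HCC+ (-0.34, adjusted p = 0.000461). Over all genes 4411 were higher and 2490 lower in the main fit, 2342 and 4572 under total count scaling, and 5021 and 2796 with the trends removed. For HCC+ against HCC- at 0.048 mg/mL the count of members was 2, and 4 with only the groups compared and 0 with the trends removed. Over all genes 212 were higher and 481 lower in the main fit. With only the groups compared, 1540 of 16703 tested genes were higher and 2101 lower, and with the trends removed 9 and 17 of 19556, so the members' counts moved with those of all genes. Leaving out each library gave 0 to 3, 1 to 4 and 0 to 2 members for these comparisons, 5 to 6 for HCC- at 1.2 mg/mL against the blank and against 0.048 mg/mL, 4 to 5 for the test of the source difference between doses, and the same count as with all libraries for the others. For HCC- at 0.048 mg/mL against the blank, all genes called ranged from 0 higher and 1 lower (without blank replicate 1) to 2925 and 2801 (without blank replicate 2). Between the sources at 1.2 mg/mL the range was 3583 and 1739 (without HCC- replicate 3) to 4211 and 2253 (without HCC+ replicate 1). At 0.048 mg/mL it was 2 and 0 (without HCC- replicate 1) to 135 and 401 (without HCC- replicate 3). The cause was not tested.

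Directions turned for SLC39A10 in HCC- at 1.2 mg/mL against the blank under total count scaling (0.0155), in HCC- at 0.048 mg/mL with the trends removed (0.0086), and in HCC- at 1.2 against 0.048 mg/mL, where the main value was 0.0037, without the filter (-0.0041), with the replicate block (-0.0035), with the trends removed (-0.0648) and when libraries were left out (-0.0826 to 0.138 over these fits). SLC30A6 turned in HCC- at 1.2 mg/mL under total count scaling (0.0493) and with the trends removed (0.0405), and SLC39A9 under total count scaling (0.0706). The replicate numbers did not pair libraries: of 63 pairs with the same number 1 had a correlation of deviations over 0.1, and the range was -0.0954 to 0.115. With the replicate block MT2A in HCC+ against HCC- at 1.2 mg/mL had an adjusted p of 0.0509.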
